A study of Homo sapiens with 6 samples.

Results

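The 9 genes described here encode the lipases that hydrolyze lipoprotein, lysosomal and lipid droplet lipids, together with a pair of angiopoietin-like proteins that hold extracellular lipases in check. They were taken from the deposited count table by symbol: *LIPG*, *LPL*, *LIPC*, *LIPA*, *LIPE*, *PNPLA2*, *PNPLA3*, *ANGPTL4* and *ANGPTL8*, 9 of 20381 genes. The set was selected on results of the comparison of PON1-OE with NC libraries, so the differences of these genes between the groups are given as a description. They are counted beside the calls over all genes, and no p-value is given for them.

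Gene expression was measured by RNA-seq of poly(A) RNA in HCCLM3, a human hepatocellular carcinoma cell line with low *PON1* expression. The study compared 3 libraries of cells with stable lentiviral overexpression of *PON1* (PON1-OE) with 3 libraries of negative control cells (NC). Both groups share the HCCLM3 background, and the comparison asked which transcripts differ when PON1, a lactonase carried on high-density lipoprotein, is expressed from a transgene. The lines were selected with puromycin according to the methods, while the design text of the series names an empty vector in the control cells, a transient transfection and another serum content. The sources used here do not say whether the replicates came from separate cultures, so n counts libraries and the spread between them may be technical.

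*PON1* (ENSG00000005421, chr7:95297676-95324707 on GRCh38, minus strand) had 0, 2 and 3 counts in the NC libraries and 155, 181 and 167 counts in the PON1-OE libraries, in the order of the replicate numbers, which is kept for all genes below. Its mean level in PON1-OE was 10.5 ± 0.955 CPM (counts scaled to the size of the library by edgeR, SD, n = 3), at least 60.0-fold higher than the level of 3 counts per NC library. Totals of the estimated counts ranged from 15706672 to 17948383 per library, and 3 counts, taken as the limit that a count of 0 allows, corresponded to 0.166 to 0.192 CPM. The labels name a hepatocyte, and 7 of 10 hepatocyte markers were over 3 counts in every library, with *HNF4A* at group means of 78.6 (NC) and 80.2 CPM (PON1-OE). Several secreted hepatocyte products were low or absent, with *ALB* at 4 to 13 counts and *TTR* and *SERPINA1* at or under 3 counts in every library.

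Lipases of the vascular surface act outside the cell. Lipoprotein lipase and hepatic lipase mainly hydrolyze triglycerides of circulating lipoproteins, and endothelial lipase, the product of *LIPG*, is mainly a phospholipase of high-density lipoprotein, the particle on which PON1 circulates. Inside the cell, the lipase of lysosomes releases cholesterol and fatty acids from endocytosed lipoproteins, and adipose triglyceride lipase with hormone-sensitive lipase breaks down the triglycerides of lipid droplets. ANGPTL4 inhibits lipoprotein lipase, and ANGPTL8 acts together with other angiopoietin-like proteins.

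In HCCLM3, transcripts of the intracellular lipases *PNPLA2* and *LIPA* were the most abundant of the set per length, the levels of *LIPG*, *LIPC* and *ANGPTL4* were lower, and those of *LPL*, *LIPE* and *ANGPTL8* were at or near 0. *LIPG* was the only one of the 9 genes whose PON1-OE libraries all lay above all NC libraries, at 31.1 ± 2.95 against 22.7 ± 1.11 CPM (SD, n = 3 each). Groups of libraries did not overlap, in either direction, for 16.1% of all genes tested. *LIPC* and *ANGPTL4* had lower means in PON1-OE, with overlapping groups. *PNPLA2*, the most abundant lipase transcript, had the same mean in both groups.

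*LIPG* (ENSG00000101670, chr18:49560699-49599182, plus strand) encodes endothelial lipase. The stretch upstream of its RefSeq start is shown here with that of *ANGPTL4*, the gene of the set with the next highest counts among the extracellular proteins. In the GENCODE v29 annotation both stretches lie within the span of their gene, after its first base. The differences of these 2 genes between the groups were opposite in sign. *G0S2*, an inhibitor gene described further on, is shown because it was the 1 gene of the pathway lists with an adjusted p under 0.05. The sequences come from the RefSeq promoter table on GRCh38.p14, which held 7 of the 9 genes, *LPL* and *PNPLA3* not among them. Only bases that lie in no annotated exon are printed, 5′ to 3′ on the strand of the gene, with capitals marking the motifs found.
LIPG, chr18:49561891-49562030: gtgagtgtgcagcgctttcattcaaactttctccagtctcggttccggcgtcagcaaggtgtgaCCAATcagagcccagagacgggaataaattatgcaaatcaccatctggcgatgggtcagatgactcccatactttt
ANGPTL4, chr19:8363905-8364150: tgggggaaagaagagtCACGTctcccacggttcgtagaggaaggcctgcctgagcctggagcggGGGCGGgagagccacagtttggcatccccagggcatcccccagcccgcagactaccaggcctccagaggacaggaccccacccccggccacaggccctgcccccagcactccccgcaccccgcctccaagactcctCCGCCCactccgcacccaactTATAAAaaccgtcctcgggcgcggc
G0S2, chr1:209675248-209675411: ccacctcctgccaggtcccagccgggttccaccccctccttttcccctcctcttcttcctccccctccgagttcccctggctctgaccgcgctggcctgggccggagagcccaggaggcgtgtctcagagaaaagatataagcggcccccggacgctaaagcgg

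A total of 6 motifs were searched on both strands of the 250 bases before each start: CACGTG (the E-box), TATAAA (a box bound at transcription starts), CCAAT (the box of factor NF-Y), GTTAAT (a half-site of HNF1), GGGCGG (the box of Sp1) and ACGTG (the hypoxia response core, which lies within the E-box). *LIPG* held CCAAT 102 bases before its start and no other of these motifs. CCAAT occurred in 32% of 35116 promoters of the same length and in 4 of the 7 genes matched, *LIPG*, *LIPA*, *LIPE* and *ANGPTL8*. A gene was counted if any of its starts held the motif, and *LIPA* and *LIPE* had more than a single start. The percentages count single promoters, so the counts of genes are not on the same scale. *ANGPTL4* held TATAAA 29 bases before its start, a motif of 10.7% of promoters, and none of the other genes matched did. It also held GGGCGG at 186 and, on the opposite strand, at 50 bases, and ACGTG on the opposite strand at 234 bases before the start. GGGCGG occurred in 42.6% of promoters and in *LIPA*, *LIPE*, *PNPLA2* and *ANGPTL4*, and ACGTG occurred in 18.5% of promoters. *LIPC* held GTTAAT 66 bases before its start, as 6.23% of promoters did. CACGTG, found in 6.34% of promoters, was in none of the 7 genes, and *G0S2* held none of the 6 motifs.

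*LIPG* had 379, 429 and 367.06 estimated counts in the NC libraries, and the PON1-OE libraries held 515, 448 and 531. Normalized with edgeR's TMM factors, the NC libraries were at 23.0, 23.7 and 21.5 CPM and those with PON1-OE at 31.4, 28.0 and 33.9 CPM. The groups did not overlap, and PON1-OE replicate 2 lay nearest to the NC libraries. The fitted log2 fold change was 0.45 (SE 0.0819), a 1.37-fold difference.

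Over all 11958 genes that passed edgeR's filter on low counts, edgeR's quasi-likelihood test gave 81 an adjusted p under 0.05, which is 0.677%, and 60 of these were higher in PON1-OE, 0.502%. *LIPG* was the 1 gene of the set among them, on the higher side. A further threshold at a 1.5-fold change in either direction left 6 genes, 0.0502% of those tested, none of them of this set. At an unadjusted p under 0.05, 11.1% of all genes were counted, 5.91% higher and 5.17% lower in PON1-OE, and of the set *LIPG* was on the higher and *LIPC* and *ANGPTL4* on the lower side. The count of 81 was 34 without NC replicate 1 and 11 without NC replicate 3. Leaving out PON1-OE replicate 1 gave 44, and leaving out PON1-OE replicate 3 gave 18, and *LIPG* was not among the genes without the third replicate of either group. Groups of libraries did not overlap for 16.1% of all genes and for 1 of the set. Because this comparison chose the set, nothing is read from these counts.

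Markers of endothelial cells, which are known for *LIPG* expression, were listed to check the label. Their summed level was 22.1 to 24.8 CPM over the NC libraries and 25.3 to 28.0 CPM with PON1-OE, and these ranges did not overlap. Among single genes, groups did not overlap for 16.1% of all genes tested. The sum came mostly from *PECAM1* and *KDR*. *PECAM1* was at means of 13.1 (NC) and 15.1 CPM (PON1-OE, edgeR adjusted p = 0.452), and its groups did not overlap. *KDR* was at means of 9.24 (NC) and 10.9 CPM (PON1-OE, edgeR adjusted p = 0.538), and its groups overlapped. The defining markers *CLDN5* and *CDH5* had 0 counts in every library apart from 1 count of *CDH5* in NC replicate 3. *VWF* had 5 to 12 counts and *TEK* 1 to 10 counts per library, and the groups of both overlapped. *VWF* was at a mean of 0.480 CPM in each group. *TEK* was lower in PON1-OE, at means of 0.330 (NC) and 0.147 CPM (PON1-OE), so the markers did not all go the same way. All libraries are of the HCCLM3 line, and the part of endothelial markers in the difference of *LIPG* was not tested. In bulk RNA, more cells with a transcript and more of it per cell cannot be told apart.

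**Figure D1:**
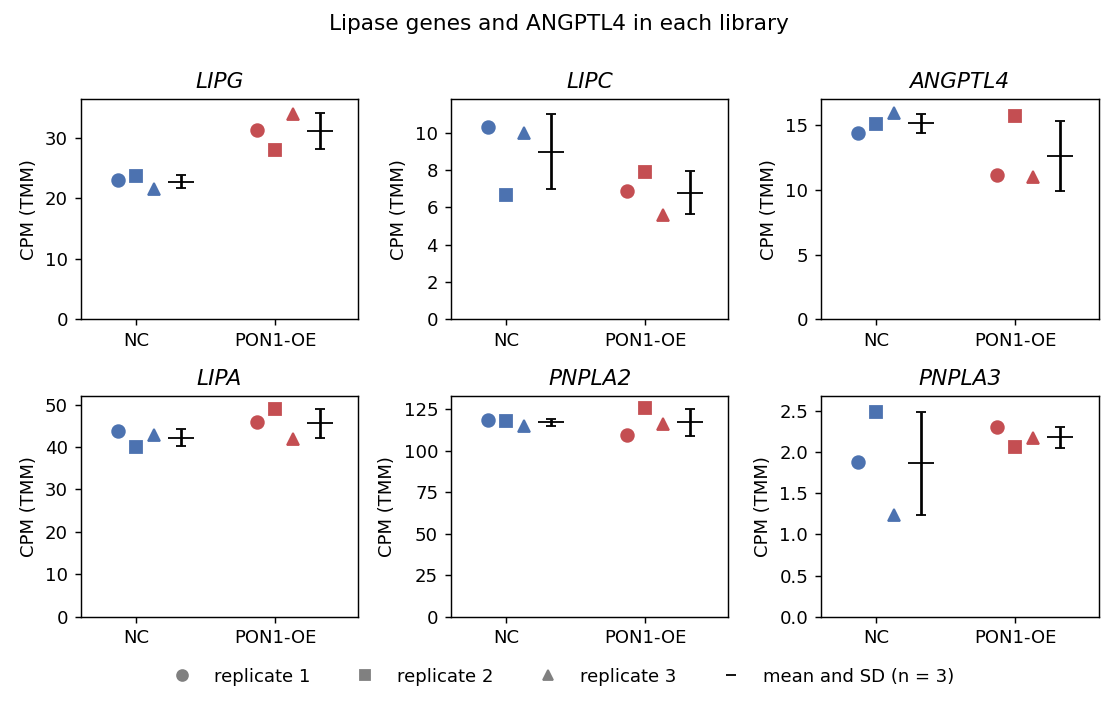
Level in CPM (TMM-normalized, linear axes from 0) of the 6 genes of the set that passed the filter on low counts, for NC (blue) and PON1-OE (red), with 1 symbol per library and a bar for the mean and SD of 3 libraries. The *LIPG* groups are apart, at 21.5 to 23.7 and 28.0 to 33.9 CPM, and the groups of the other 5 genes overlap. Of all genes tested, 16.1% had groups that did not overlap.

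*LIPC* (ENSG00000166035, chr15:58410569-58569843, plus strand) encodes hepatic lipase, which hepatocytes secrete. Counts were 170, 121 and 170 with NC against 113, 126 and 88 with PON1-OE, or 10.3, 6.69 and 9.97 CPM against 6.88, 7.88 and 5.62 CPM. NC replicates 1 and 3 were above all PON1-OE libraries, and NC replicate 2 lay below 2 of the 3. Mean levels were 8.98 ± 1.99 (NC) and 6.79 ± 1.13 CPM (PON1-OE, SD, n = 3 each), with a log2 fold change of -0.40 (SE 0.162). Without NC replicate 2 it was -0.58, and without PON1-OE replicate 3, the library with the lowest level, it was -0.28. *ALDH1A2*, which overlaps the span of *LIPC* on the other strand without a shared exonic base, had at most 3 counts in a library.

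*LPL* (ENSG00000175445, chr8:19901717-19967259, plus strand), the lipoprotein lipase gene, had 0 counts in all 6 libraries. A count of 0 allows up to 0.166 to 0.192 CPM, so its transcript was not detectable at this depth in either group. The endothelial anchor of lipoprotein lipase, *GPIHBP1*, was at 0 in all 6 libraries too, as were *APOC3* and *APOA5*, a plasma inhibitor and an activator of this enzyme. Its cofactor *APOC2* was at or under 3 counts in every library. *LMF1*, the chaperone of the endoplasmic reticulum that extracellular lipases need to fold, was at 16.3 (NC) and 17.2 CPM (PON1-OE), with a log2 fold change of 0.08.

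*ANGPTL4* (ENSG00000167772, chr19:8363289-8374373, plus strand) encodes a secreted lipase inhibitor that is known to respond to fatty acids, fasting and hypoxia. Counts were 238, 272 and 271 with NC and 183, 251 and 172 with PON1-OE. As levels these were 14.4, 15.0 and 15.9 CPM for NC and 11.1, 15.7 and 11.0 CPM for PON1-OE. PON1-OE replicates 1 and 3 were below all NC libraries, and PON1-OE replicate 2 lay within the NC range. The means were 15.1 ± 0.742 and 12.6 ± 2.68 CPM (SD, n = 3 each), and the log2 fold change was -0.26 (SE 0.121). Leaving out PON1-OE replicate 2 gave -0.45, and leaving out PON1-OE replicate 3 gave -0.17.

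*ANGPTL8* (ENSG00000130173, chr19:11237450-11241943, plus strand), which encodes a feeding-induced partner of other angiopoietin-like proteins, had 0 counts in all 6 libraries. It lies within *DOCK6*, which runs on the other strand (chr19:11199295-11262481), and 350 of the 1223 exonic bases of *ANGPTL8* are exonic in *DOCK6* too. The library kit does not mark the strand, so reads from these shared bases cannot be told apart. *DOCK6* itself had 604 to 704 counts and a log2 fold change of 0.04 (SE 0.0648, edgeR adjusted p = 0.883).

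*LIPA* (ENSG00000107798, chr10:89213569-89414557, minus strand) encodes lysosomal acid lipase. It had 723, 723.05 and 732 counts with NC and 755, 782 and 657 with PON1-OE. Its NC levels were 43.8, 40.0 and 42.9 CPM, and its PON1-OE levels were 46.0, 48.9 and 41.9 CPM. PON1-OE replicates 1 and 2 were above all NC libraries, and PON1-OE replicate 3 lay within the NC range. The means were 42.2 ± 2.0 and 45.6 ± 3.49 CPM (SD, n = 3 each), with a log2 fold change of 0.11 (SE 0.0684). *LIPA* shares 65 exonic bases with *IFIT2* on the other strand, which had 35 to 55 counts, and *IFIT3* (260 to 314 counts), *IFIT1* (2 to 7 counts) and *IFIT1B* (0 counts) lie within its span.

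*PNPLA2* (ENSG00000177666, chr11:818902-825573, plus strand) encodes adipose triglyceride lipase, which takes the first fatty acid off a stored triglyceride. It had 1961, 2132 and 1959 counts with NC and 1801, 2012 and 1818 with PON1-OE, or 119, 118 and 115 CPM against 110, 126 and 116 CPM. The PON1-OE libraries lay on both sides of the NC libraries. The means were 117 ± 2.03 and 117 ± 8.14 CPM (SD, n = 3 each), and the log2 fold change was 0.00 (SE 0.0499), with a range of -0.05 to 0.05 when each library was left out in turn.

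*PNPLA3* (ENSG00000100344, chr22:43923739-43964488, plus strand) encodes a lipid droplet protein of the same patatin-like family that is abundant in liver. It had 31, 45 and 21 counts with NC and 38, 33 and 34 with PON1-OE, or 1.88, 2.49 and 1.23 CPM against 2.31, 2.06 and 2.17 CPM. The NC libraries lay on both sides of all PON1-OE libraries. The log2 fold change was 0.22 (SE 0.275), with 0.49 without NC replicate 2 and -0.0045 without NC replicate 3. *PNPLA3* shares 148 exonic bases with *SAMM50* on the same strand, which had 497 to 602 counts, so that a few reads could have been counted for either gene.

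*LIPE* (ENSG00000079435, chr19:42401507-42427426, minus strand) encodes hormone-sensitive lipase, the diglyceride lipase of adipose tissue. It had 1 count in NC replicate 2, 2 counts in PON1-OE replicate 2 and 0 in the other 4 libraries. Both groups were under the limit of 3 counts, and no fold is given. Of 5 adipocyte markers, *FABP4*, *CIDEA* and *LEP* had 0 counts, and all 5 were at or under 3 counts in every library.

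Levels of different genes were compared as CPM per kilobase of the longest transcript in GENCODE v29. The mean over the 6 libraries was 48.3 ± 2.19 CPM per kilobase for *PNPLA2*, 15.8 ± 1.13 for *LIPA*, 7.38 ± 1.19 for *ANGPTL4*, 2.66 ± 0.634 for *LIPC*, 2.58 ± 0.478 for *LIPG* and 0.722 ± 0.157 for *PNPLA3* (SD, n = 6 each). Libraries of neighbors in this order did not overlap, except for *LIPC* (1.89 to 3.47) and *LIPG* (2.06 to 3.25), whose levels did not differ beyond their spread over all 6 libraries. The order of these 2 genes by mean was not the same in the groups: *LIPC* was at 3.03 ± 0.672 and *LIPG* at 2.18 ± 0.107 in NC, and *LIPC* was at 2.29 ± 0.382 and *LIPG* at 2.98 ± 0.283 with PON1-OE (CPM per kilobase, SD, n = 3 each). Summed over the set, *PNPLA2* made up 61.2% to 64.0% and *LIPA* 18.8% to 22.4% of the level per kilobase of a library, and *LIPG* made up 2.67% to 4.35%. By the mean over all 6 libraries, among 11840 tested genes with a length, *PNPLA2* stood at percentile 86.6 of the level per kilobase, *LIPA* at 66.2, *ANGPTL4* at 47.5, *LIPC* at 25.9, *LIPG* at 25.3 and *PNPLA3* at 9.54.

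The place of *LIPG* depended on the length used. Its longest transcript has 10441 bases, of which 1500 are coding, while that of *LIPC* has 2968 bases with 1497 coding. Per kilobase of coding length, *LIPG* stood at 17.9 (14.3 to 22.6 over the libraries), above *ANGPTL4* at 11.4 (9.02 to 13) and *LIPC* at 5.27 (3.75 to 6.88). *PNPLA2* and *LIPA* remained the first and second of the order and *PNPLA3* the lowest of the 6. Which transcripts of *LIPG* the reads came from was not tested.

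**Figure D2:**
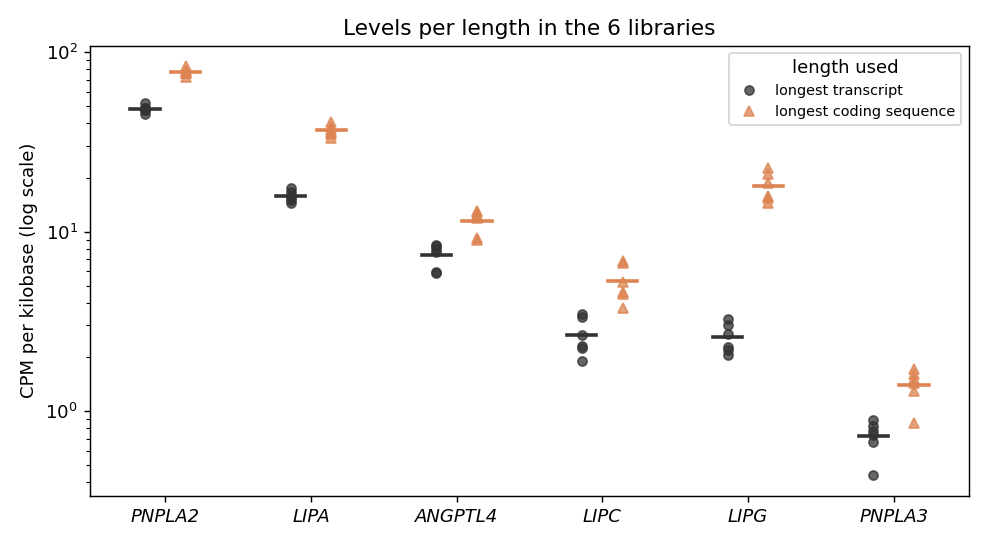
Level of 6 genes in CPM per kilobase on a log axis, by longest transcript (black circles) and by longest coding sequence (orange triangles), with 1 point for each of the 6 libraries and a line at their mean. *LIPG* is at 2.58 beside *LIPC* at 2.66 by transcript length and at 17.9, above *ANGPTL4* at 11.4, by coding length.

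Within a library, the level of *LIPG* against other genes of the set can be read as a ratio, which no scaling of the library changes. The ratio of *LIPG* to *LIPC* per kilobase of the longest transcript was 0.634, 1.01 and 0.614 with NC and 1.3, 1.01 and 1.72 with PON1-OE. Replicate 2 of each group had almost the same ratio, 1.008 in NC and 1.011 in PON1-OE, and the other libraries of the groups were apart. The ratio of *LIPG* to *ANGPTL4* was 0.287, 0.284 and 0.244 with NC and 0.506, 0.321 and 0.556 with PON1-OE, a mean of 0.271 ± 0.0240 against 0.461 ± 0.124 (SD, n = 3 each). The groups were apart, with PON1-OE replicate 2 the nearest to NC. The ratio of *LIPG* to *LIPA* was 0.140, 0.158 and 0.134 with NC and 0.182, 0.153 and 0.215 with PON1-OE. Its groups overlapped, since PON1-OE replicate 2 lay below NC replicate 2. All of these ratios include *LIPG*, on which the set was selected, so they are a description.

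Spread between libraries was set beside the spread that counting alone gives. For *LIPG* the coefficient of variation was 4.90% in NC, where counting gives 5.06%, and 9.49% in PON1-OE, where counting gives 4.49%. *ANGPTL4* showed the same order, with 4.91% in NC (counting 6.21%) and 21.2% in PON1-OE (counting 7.11%), as did *PNPLA2*, with 1.73% (counting 2.23%) and 6.95% (counting 2.31%). *LIPA* varied by 4.74% in NC and 7.66% in PON1-OE, where counting gives 3.71% in each. *LIPC* varied by 22.2% in NC and 16.7% in PON1-OE, against 8.14% and 9.66% from counting. *PNPLA3* was the shallowest, with 33.7% in NC against 18.2% from counting and 5.75% in PON1-OE against 16.9%. In PON1-OE, replicate 2 was the library farthest from the other 2 for *LIPG*, *ANGPTL4* and *PNPLA2*.

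The 6 genes that passed the filter had a median log2 fold change of 0.06, with 4 higher and 2 lower in PON1-OE, and the median over all 11958 genes was 0.00, with 5863 higher and 6095 lower. *LPL*, *LIPE* and *ANGPTL8* did not pass. Other genes of the pathway were listed by role, with earlier results of these data known, and 86 of the 122 listed were tested. Their median log2 fold change was -0.01, with 41 higher and 45 lower. Of these 86, 1 gene had an adjusted p under 0.05 in edgeR's test, beside 0.677% of all genes, and 9 had an unadjusted p under 0.05, which is 10.5% beside 11.1% of all genes.

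That gene was *G0S2* (ENSG00000123689), which encodes an inhibitor of adipose triglyceride lipase, the *PNPLA2* product. It had 615, 765 and 641 counts with NC and 820, 781 and 869 with PON1-OE, and its level rose from 39.0 ± 2.82 to 51.4 ± 3.56 CPM (SD, n = 3 each). The groups did not overlap. The log2 fold change was 0.40 (SE 0.0695, edgeR adjusted p = 0.00853), while that of *PNPLA2* was 0.00. This p does not allow for the choice of the lists with earlier results known. Adjusted p ranged from 8.06e-05 to 0.10 over 12 alternative settings, with 0.0625 without NC replicate 1, 0.10 without NC replicate 3 and 0.0940 without PON1-OE replicate 3.

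The other genes of lipid droplet lipolysis did not pass an adjusted p of 0.05. Of the 16 genes of this list that were tested, 8 were higher and 8 lower. An unadjusted p under 0.05 in edgeR's test was found for 3, *G0S2*, *MGLL* and *PLIN3*, which is 18.8% beside 11.1% of all genes. Groups did not overlap for 4 of the 16, beside 16.1% of all genes. Nothing particular to the list is read from these counts. *MGLL*, which encodes the lipase of monoglycerides, was at 580 ± 11.8 (NC) and 540 ± 6.3 CPM (PON1-OE, SD, n = 3 each), with a log2 fold change of -0.10 (edgeR adjusted p = 0.217). The lipid droplet coat genes *PLIN2* and *PLIN3* had log2 fold changes of 0.04 (edgeR adjusted p = 0.786) and 0.10 (edgeR adjusted p = 0.297). *PLIN2*, the most abundant of the list, was at 615 (NC) and 631 CPM (PON1-OE).

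In the list of lysosomal lipid release, which surrounds *LIPA*, none of 13 tested genes passed an adjusted p of 0.05 and 1 had an unadjusted p under 0.05 in edgeR's test. This was *NPC1*, the cholesterol exporter of lysosomes, at 765 ± 35.7 (NC) and 850 ± 20.4 CPM (PON1-OE, SD, n = 3 each). Its groups did not overlap, and its log2 fold change was 0.15 (edgeR adjusted p = 0.0613). The call went either way with the processing: its adjusted p ranged from 0.00349 to 0.369, and it was under 0.05 in 4 of 12 settings. *CTSD* and *PSAP*, the most abundant genes of this list, had log2 fold changes of 0.06 and -0.01 (edgeR adjusted p = 0.527 and 0.928).

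Among genes for the maturation, anchoring and plasma cofactors of lipases, none of 13 tested passed an adjusted p of 0.05, and none had an unadjusted p under 0.05 in edgeR's test. Their log2 fold changes lay between -0.06 and 0.14. *PCSK6*, a proprotein convertase of the family that cleaves extracellular lipases and angiopoietin-like proteins, had the highest value, 0.14 (edgeR adjusted p = 0.490). *LRP1*, a receptor that takes up lipoproteins and lipases, was at 0.10 (edgeR adjusted p = 0.469), and *SEL1L*, which serves lipase folding in the endoplasmic reticulum, was at -0.04 (edgeR adjusted p = 0.769).

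Of other members of the lipase, patatin and angiopoietin-like families, 7 of 24 listed were tested, with 1 higher and 6 lower and none at an unadjusted p under 0.05 in edgeR's test. *ANGPTL2* was the most abundant of them, at 136 (NC) and 129 CPM (PON1-OE), with a log2 fold change of -0.07 (edgeR adjusted p = 0.626). *PNPLA6* and *PNPLA8*, phospholipases of the family of *PNPLA2*, were at -0.09 (edgeR adjusted p = 0.667) and -0.04 (edgeR adjusted p = 0.853).

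None of 18 tested genes of fatty acid uptake, activation and esterification, which handle the products of lipolysis, passed in edgeR's test at an adjusted or an unadjusted p of 0.05. *LPIN1*, a phosphatidate phosphatase, was at 0.17 on the log2 scale (edgeR adjusted p = 0.471) and *SLC27A4*, a fatty acid transporter, at 0.09 (edgeR adjusted p = 0.508). *SCARB1*, the receptor for high-density lipoprotein, was at 0.05 (edgeR adjusted p = 0.606) and *CPT1A*, which admits fatty acids to mitochondria, at 0.00 (edgeR adjusted p = 0.999).

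Of 19 tested transcription factors known to control lipase genes, none passed an adjusted p of 0.05 in edgeR's test, and 5 had an unadjusted p under 0.05, with 1 higher and 4 lower in PON1-OE. That is 26.3%, beside 11.1% of all genes (5.91% higher and 5.17% lower), for a list chosen with earlier results known, and nothing particular to the list is read from it. *NR1H4*, the bile acid receptor FXR, was at 3.69 ± 0.905 (NC) and 2.25 ± 0.118 CPM (PON1-OE, SD, n = 3 each), with a log2 fold change of -0.71 (SE 0.229, edgeR adjusted p = 0.212). *PPARA*, a fatty acid sensor, was at 24.8 ± 1.61 and 20.7 ± 1.59 CPM, with a log2 fold change of -0.26 (SE 0.0851, edgeR adjusted p = 0.225). The groups of both genes did not overlap. *HIF1A* and *EPAS1*, the hypoxia factors, were at -0.07 and -0.04 (edgeR adjusted p = 0.567 and 0.703).

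**Figure D3:**
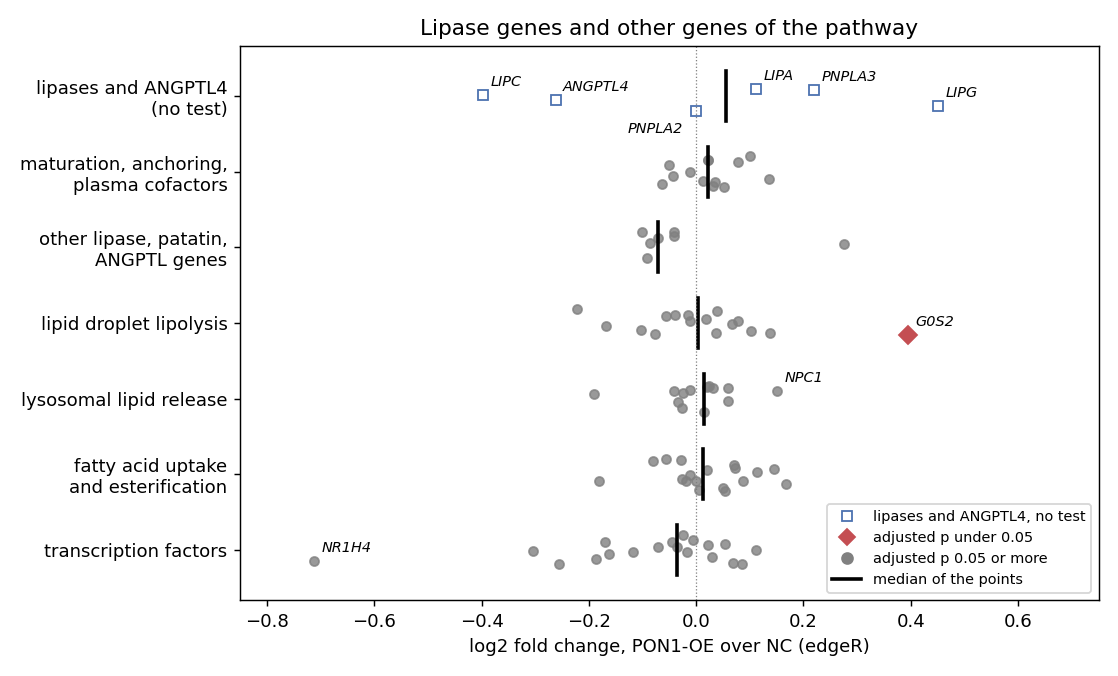
Log2 fold change of PON1-OE over NC (edgeR) for the 6 genes of the set that passed the filter (open squares, no test) and for the tested genes of 6 pathway lists, with red diamonds for an adjusted p under 0.05 and black lines for the medians. *G0S2* at 0.40 is the 1 listed gene under 0.05, and *LIPG* at 0.45 lies farthest to the right.

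Genes with a profile like that of *LIPG* were searched by the root mean square difference of log2 CPM over the 6 libraries, each gene centered on its own mean. Of 11924 genes compared, the nearest were *CSRP2* (0.0518), *LAMB3* (0.0559), *PIBF1* (0.0615), *G0S2* (0.0621) and *ARPIN* (0.0646), while the median over all genes was 0.261. On this centered scale *LIPG* lay at -0.21, -0.16 and -0.30 with NC and at 0.24, 0.08 and 0.35 with PON1-OE. PON1-OE replicate 3 was the highest library for all 6 genes, and PON1-OE replicate 2 the lowest of the PON1-OE libraries for all of them. *LAMB3*, a laminin chain, was the most abundant of the 5, at 261 ± 22.7 (NC) and 357 ± 14.9 CPM (PON1-OE, SD, n = 3 each), with a log2 fold change of 0.45 like that of *LIPG*. *CSRP2* (57 to 89 counts), *PIBF1* (46 to 63 counts) and *ARPIN* did not pass an adjusted p of 0.05 in edgeR's test (0.297, 0.533 and 0.119), while *LAMB3* and *G0S2* did. Likeness to *LIPG* follows from the same 6 libraries that chose the set, and it is a description.

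**Figure D4:**
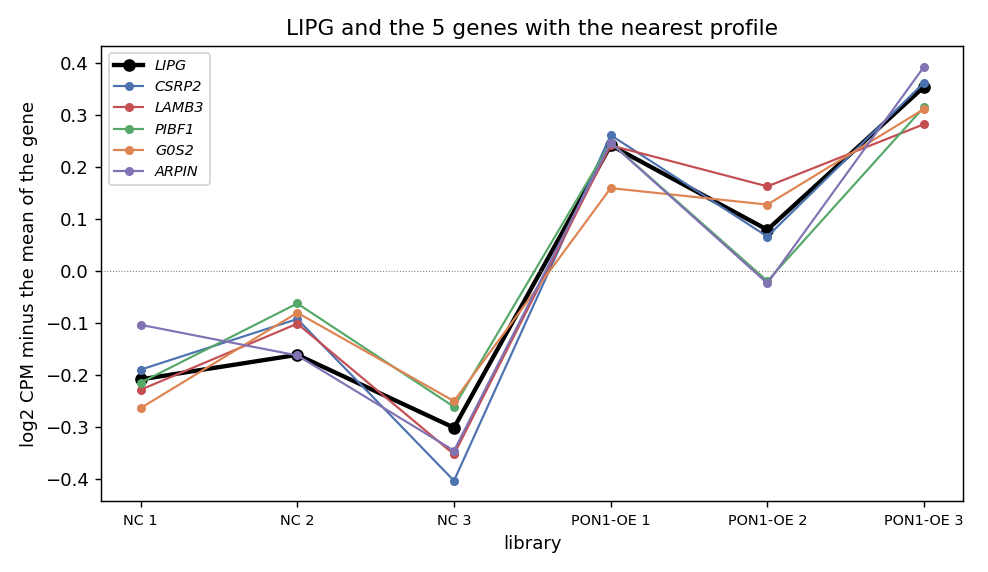
Log2 CPM minus the mean of the gene, for *LIPG* (black) and the 5 genes with the smallest root mean square difference from it (colors), in each of the 3 NC and 3 PON1-OE libraries. *LIPG* runs from -0.30 in NC replicate 3 to 0.35 in PON1-OE replicate 3, and in PON1-OE replicate 2 the 6 genes are closest to the NC libraries.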

How the data were processed

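Gene expression was measured by RNA-seq of 3 PON1-OE and 3 NC libraries of HCCLM3. The authors deposited a table of estimated counts for 20381 genes, 649 without a symbol, without normalization, and 10.5% of the values were not whole numbers. Submitters' processing notes name Bowtie2 2.2.8, HISAT2, StringTie 1.3.1 and DESeq2. The genome build, the annotation and the step that made the counts are not given in the sources used here. How reads that fit several genes were split is not given either. Of the identifiers, 20126 are in GENCODE v29 (GRCh38), from which positions, lengths and overlaps were taken. Promoters are from RefSeq (GRCh38.p14).

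The design assumed counts, and the estimated counts were rounded for it. filterByExpr kept 11958 genes. These were scaled by TMM and tested, PON1-OE against NC without covariates, with edgeR 4.0.16 (glmQLFit, glmQLFTest) in R 4.3.3, with Benjamini-Hochberg adjustment over all genes tested. limma 3.58.1 and DESeq2 1.42.0 served as alternatives. The fits were tested on simulated counts. Between replicates, counts differed by more than sampling alone gives (chi-square per degree of freedom 2.11 to 4.11).

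The 9 genes, the 6 pathway lists and the tests were chosen with earlier results of these data known. Named genes are the 9, *PON1*, listed genes under an adjusted p of 0.05, the 2 with the smallest p and the 2 with the highest CPM of each list, genes that overlap one of the 9, and the 5 nearest to *LIPG*. Marker lists of macrophages (0.255 to 0.880 CPM summed per library, *PTPRC* and *MARCO* at 0) and fibroblasts (16.0 to 20.9 CPM) were summed too. The fibroblast sum came mostly from *LUM*, at means of 13.7 (NC) and 13.0 CPM (PON1-OE), and *DCN*, at 4.27 and 5.10 CPM. *COL1A1* and *COL1A2* were at 4 counts or fewer. The 3 counts taken as a limit cover counting error only.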

Additional observations from a re-analysis of the deposited data

How the results depend on the processing

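The count of genes under an adjusted p of 0.05 was 81 of 11958. It was 177 of 15542 without a filter on low counts, and 122 with DESeq2, which gave an adjusted p to 4576 genes. It was 6 with the further fold threshold and 1325 at an unadjusted p. When each library was left out in turn it was 11 to 103. Replicate numbers did not pair the libraries (correlation of the deviations of same-numbered libraries 0.0173, -0.0231 and 0.0205), and a fit with this number as a replicate block gave 40, *LIPG* and *G0S2* among them. Of the 9 genes, 6 were tested and 1 was under 0.05, beside 0.677% of all genes. With DESeq2 it was 0, but DESeq2 gave an adjusted p to only 1 gene of the set, *PNPLA2*, and none to *LIPG*. The count of the set was 0 with the fold threshold and 3 at an unadjusted p, beside 11.1% of all genes. It was 0 to 1 when a library was left out, with 0 without NC replicate 3 or PON1-OE replicate 3. Of the other pathway genes, 1 was under 0.05, against 2 without a filter, with at least 10 counts in every library or with DESeq2, 0 with the fold threshold, 9 at an unadjusted p and 0 to 2 when a library was left out. The log2 fold change of *LIPG* was 0.39 to 0.52 over 12 settings, that of *LIPC* -0.58 to -0.28, that of *ANGPTL4* -0.45 to -0.17 and that of *LIPA* 0.06 to 0.17. Those of *PNPLA2* (-0.05 to 0.05) and *PNPLA3* (-0.0045 without NC replicate 3, to 0.49) changed sign. Per kilobase of coding length, levels were 77.5 CPM for *PNPLA2*, 36.7 for *LIPA*, 17.9 for *LIPG*, 11.4 for *ANGPTL4*, 5.27 for *LIPC* and 1.40 for *PNPLA3*, since the shorter length divides the same counts. With 3 libraries per group, small differences of *PNPLA3* (21 to 45 counts) and *LIPC* (88 to 170 counts) could be missed. *LIPC* also varied by more than counting gives, by 22.2% in NC (counting 8.14%) and 16.7% in PON1-OE (counting 9.66%). How small a difference could be seen was not tested. Apart from the length used, the cause of the changes with processing was not tested.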
